A study of Homo sapiens with 4 samples.

Results

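snoRNA host genes are genes whose introns carry small nucleolar RNAs. They were taken from the deposited table by symbol: every SNHG gene with a number, the noncoding hosts GAS5, ZFAS1 and DANCR, and the protein-coding hosts TAF1D, NCL, NOP56, NOP58, GNL3, DKC1 and RCC1. This gave 31 of the 26830 genes in the table, 24 noncoding and 7 protein-coding. The measurements come from RNA immunoprecipitation sequencing (RIP-seq) in U2OS cells, an established line from a human osteosarcoma, into which QKI7 with a triple Flag tag had been introduced by lentivirus. QKI7 is an isoform of QKI, a STAR-domain RNA-binding protein. All 4 libraries came from these GFP-positive, UV-cross-linked cells: 2 were made from input RNA, and 2 from RNA that the Flag antibody had pulled down (Flag-RIP). Cells without the tagged protein and a mock precipitation were not analysed here. The labels do not say whether replicates were separate cultures. The p-values therefore reflect the spread of these libraries alone, which may be technical.

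When a host transcript is spliced, each snoRNA is trimmed out of its excised intron, while the joined exons form the host RNA. The sources do not give which transcripts a host row counts, so reads from retained introns may be included in it. Box C/D snoRNAs guide ribose methylation and box H/ACA snoRNAs guide pseudouridylation, mainly of ribosomal RNA. Small Cajal body RNAs (scaRNAs) guide the same modifications on spliceosomal RNAs. The joined exons of noncoding hosts often have no known protein product, and several of these RNAs are translated in part and removed by nonsense-mediated decay. Many hosts belong to the 5′ terminal oligopyrimidine (TOP) class, whose transcripts begin with a C followed by a run of pyrimidines and which includes the ribosomal protein genes.

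The start sites are shown because that pyrimidine start is the feature by which many hosts are known. RefSeq start windows on GRCh38.p14 were found for 25 of the 31 members. In 8 of these 25 members an annotated start fell on a C with at least 4 pyrimidines after it, against 7.95% of the 7665 tested genes with a window and 4.07% of all 35116 windows. The 8 were 6 of 19 noncoding hosts and 2 of 6 protein-coding hosts. Annotated starts need not be the starts used in these cells. Below, 10 bases before and 20 bases from the annotated start on are given for the 3 noncoding hosts with the largest rise and for 3 lower hosts with a pyrimidine start. Capitals mark the run of pyrimidines that begins with a C at the start base, and a sequence without capitals has none there.
DANCR, chr4:52712384-52712413, plus strand: tgcgcgccccgcccttgcccagagtcttcc
SNHG1, chr11:62855866-62855895, minus strand: gagattcgttCTCatttttctactgctcgt
SNHG3, chr1:28505933-28505962, plus strand: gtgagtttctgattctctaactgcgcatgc
SNHG19, chr16:2155339-2155368, minus strand: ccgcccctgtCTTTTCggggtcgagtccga
ZFAS1, chr20:49278632-49278661, plus strand: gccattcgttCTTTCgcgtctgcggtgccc
SNHG5, chr6:85678714-85678743, minus strand: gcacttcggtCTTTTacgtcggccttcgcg
Among members called by the test described next, 1 of 5 higher and 3 of 6 lower members with a window had such a start. The higher one was TAF1D, and the lower ones were SNHG19, ZFAS1 and SNHG5. The QKI recognition sequence, searched as ACTAAC or ACTAAT on the transcribed strand, lay in the transcribed 50 bases of 0 members and of 0.772% of all windows. These 50 bases are a small part of each transcript, and the rest of the sequence was not used here.

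Values are TPM, a share of each library per transcript length, so levels of different genes can be set side by side. They hold no read depth, and no counting interval is given. Over the 10415 genes whose TPM averaged at least 1, the median ratio of Flag-RIP to input was 3.32, so TPM was scaled to a common median ratio and changes are log2(scaled TPM + 1), Flag-RIP minus input, tested with limma over all 10415 genes. A change of 0 is therefore that of a typical gene. At the 0.05 threshold 21.5% of tested genes were higher and 23.7% lower in Flag-RIP. As markers of mesenchymal cells, VIM lay between 141 and 279 TPM and COL1A1 between 53.8 and 116, while RUNX2 had 0.61 to 6.52 and COL1A2 was at 0.34 or below. PTPRC and ALB, markers of leukocytes and hepatocytes, were at 0.01 or below. Other markers of absent cell types were low but not at 0. The epithelial EPCAM and CDH1 reached 0.58 and 0.21 TPM, the endothelial PECAM1 0.35 and the astrocyte marker GFAP 0.74, each in a Flag-RIP library. EPCAM, PECAM1 and GFAP thus passed the highest value of COL1A2. In RNA from bulk lysates, fewer cells holding a transcript and less of it per cell cannot be told apart.

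Noncoding hosts went both ways in Flag-RIP, from strongly enriched DANCR to strongly depleted SNHG19, and the 7 protein-coding members covered a narrower range. That range belongs to these 7 genes and not to protein-coding hosts in general. Among the genes listed below as other protein-coding snoRNA hosts, EEF1B2 was at -1.49 and SNX5 at 0.59. Of the 24 noncoding hosts 18 passed the filter on low values: 4 rose (DANCR, SNHG1, SNHG3 and SNHG16), 7 fell (SNHG19, SNHG8, SNHG6, ZFAS1, SNHG5, SNHG7 and SNHG11) and 7 did not pass the test. Of the 7 protein-coding hosts, all above the filter, 1 rose (TAF1D), 0 fell and 6 did not pass, with NOP56 the 1 gene lower at an unadjusted limma p under 0.05. The 22.2% higher among noncoding hosts was close to the 21.5% over all genes, and the 38.9% lower stood against 23.7%, or against 37.6% among genes averaging 5 TPM or more. Changes ran from -2.46 to 2.07 in noncoding hosts, with a median of -0.36 and an SD over genes of 1.09. In protein-coding hosts they ran from -0.42 to 0.71, with a median of -0.23 and an SD over genes of 0.38. The median change of all tested genes was 0.01, and that of genes averaging 5 TPM or more was -0.19. That level was reached by 12 of the 18 tested noncoding hosts and 6 of the 7 coding hosts. On the scaled values both Flag-RIP libraries lay above both inputs in 6 tested noncoding hosts and 1 coding host, against 40.1% of all tested genes, and below both in 9 and 4, against 39.6%. SNHG10, SNHG11, SNHG17 and SNHG4 passed the filter with an input mean TPM under 1.

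The counts depended on the scale. On TPM as deposited 16 noncoding hosts were higher and 1 lower, and 7 coding hosts higher and 0 lower, where 92.3% of all tested genes were higher and 0.317% lower. Scaled to the spike-ins, 3 noncoding hosts were higher and 11 lower, and 0 coding hosts higher and 6 lower, where 3.12% of tested genes were higher and 60.9% lower. The spike-ins took 2.78% and 3.89% of TPM in the inputs and 18.9% and 25.6% in Flag-RIP.

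**Figure D1:**
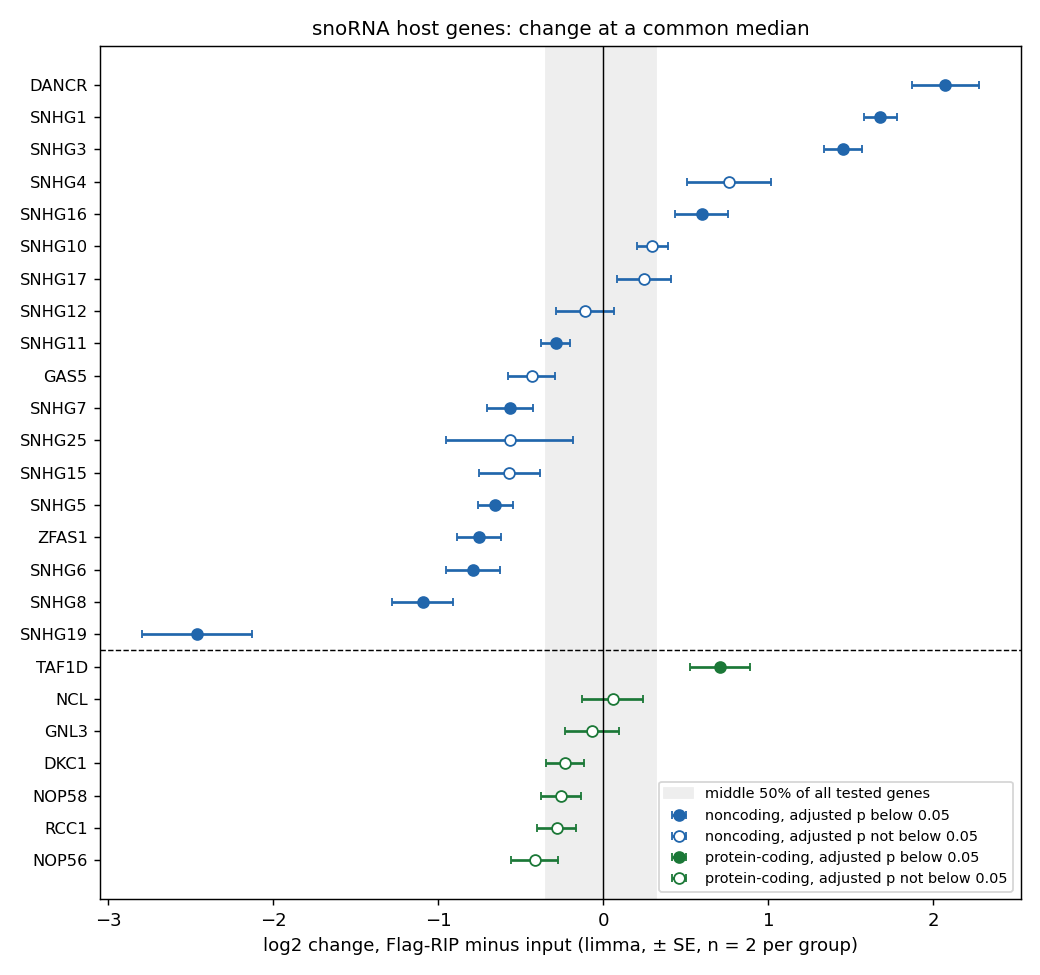
Log2 change from input to Flag-RIP at a common median (x axis, limma estimate ± SE, n = 2 libraries per group) for the 25 tested snoRNA host genes, noncoding above the dashed line and protein-coding below. Filled points passed the adjusted p threshold of 0.05 and the grey band holds the middle 50% of all tested genes; DANCR, SNHG1 and SNHG3 stand at 2.07, 1.68 and 1.45 and SNHG19 at -2.46.

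DANCR, a long noncoding RNA that hosts SNORA26, was the most enriched host. It had 5.18 and 6.75 TPM in input and 109 and 73.7 in the Flag-RIP libraries. Both Flag-RIP values lay far above both inputs, 15.3-fold in plain means and 4.62 times the median ratio. The change was 2.07 (SE 0.20, limma adjusted p = 0.0086), and 0.451% of tested genes had a larger one. DANCR lies on chromosome 4 from 52712394 to 52720697 (GRCh38.p14, RefSeq lncRNA).

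SNHG1 holds 8 C/D snoRNA genes and lies on chromosome 11 from 62851978 to 62855885. It had 1.46 and 2.26 TPM in input against 23.5 and 23.7 in Flag-RIP. The groups did not overlap, and the Flag-RIP replicates were nearly equal. The plain ratio was 12.7 and the change 1.68 (SE 0.10, limma adjusted p = 0.0046). SNHG3, the host of the H/ACA snoRNAs SNORA73A and SNORA73B on chromosome 1 from 28505943 to 28510892, had 0.74 and 1.40 TPM in input against 12.1 and 13.1 in Flag-RIP. Again both Flag-RIP libraries were above both inputs. Its plain ratio was 11.8 and its change 1.45 (SE 0.11, limma adjusted p = 0.0074). The span of SNHG3 overlaps that of RCC1, whose change was -0.28.

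SNHG16, a host of C/D snoRNAs of the SNORD1 family, rose less. It had 5.55 and 8.63 TPM in input against 42.8 and 30.5 in Flag-RIP, with no overlap, and a change of 0.60 (SE 0.16, limma adjusted p = 0.034). At least 2-fold increases past the threshold were made by 3.65% of all tested genes, and by DANCR, SNHG1 and SNHG3 among the hosts. Decreases of that size were made by 5.3% of all tested genes, and by SNHG19 and SNHG8 among the hosts. DANCR, SNHG1 and SNHG3 were called higher, and SNHG19 lower, under each scaling tried, including TPM as deposited and scaling to the spike-ins, and when any 1 library was left out. Such a fit sets 1 lone library against a pair and assumes that it varies like the pair, so its calls and losses are weak evidence: over all genes the lower calls went from 2472 to 136 without Flag-RIP replicate 1. Without the filter on low values limma called 0 of the 26830 genes, with 5008 higher and 3063 lower at an unadjusted p under 0.05. SNHG16 was at -0.33 when scaled to the spike-ins (limma adjusted p = 0.37), and its call was lost without input replicate 1 (0.60, limma adjusted p = 0.10), input replicate 2 (0.59, 0.086) or Flag-RIP replicate 1 (0.41, 0.095).

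**Figure D2:**
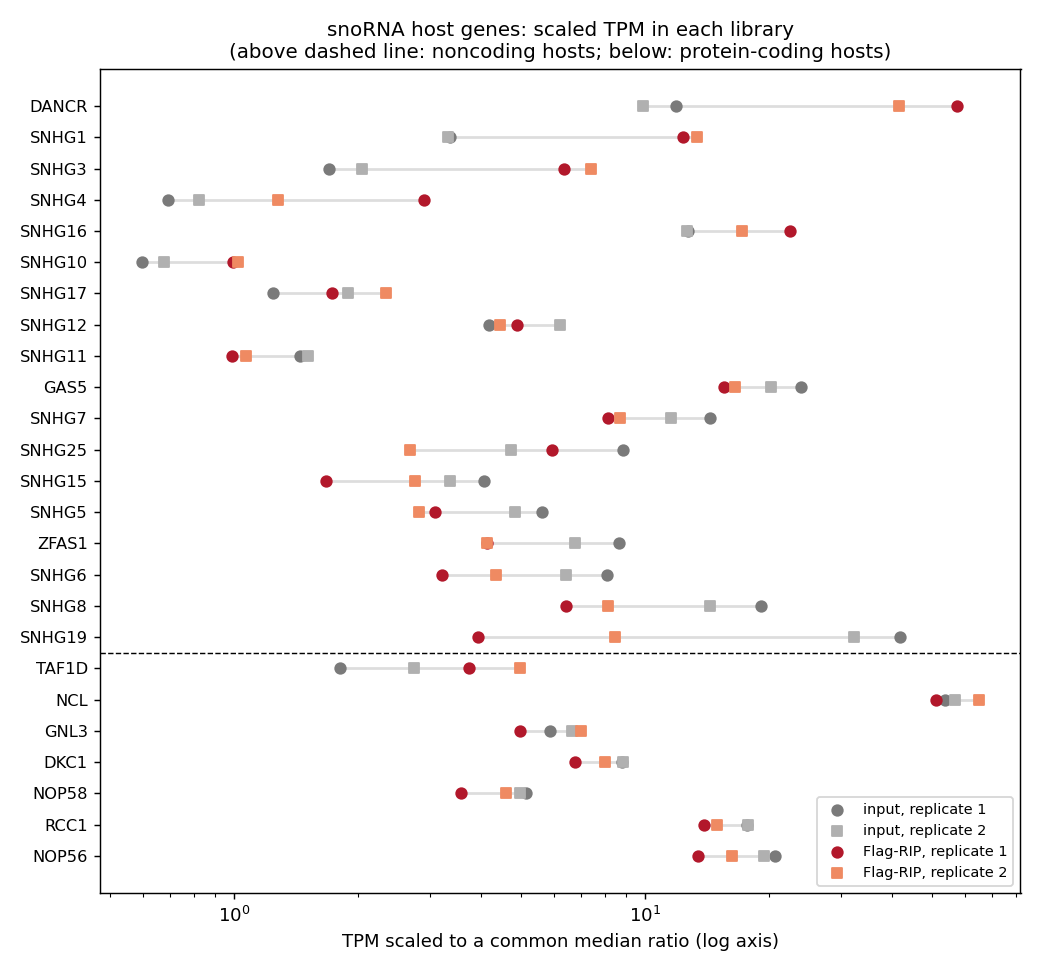
Scaled TPM (log axis) of the 25 tested snoRNA host genes in each of the 4 libraries; grey symbols are inputs, coloured symbols Flag-RIP, and each grey line joins the lowest and the highest library. In DANCR the Flag-RIP libraries stand at 57.4 and 41.6 against 11.9 and 9.89 in the inputs, and in SNHG19 at 3.93 and 8.47 against 41.7 and 32.2.

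SNHG19 was the host most depleted from Flag-RIP and the one member whose TPM fell as deposited in both Flag-RIP libraries among those tested. It is a short gene of 577 bases on chromosome 16 from 2154782 to 2155358 that holds SNORD60. TPM is sensitive to how effective length is set for short RNAs, and its effect on SNHG19 was not tested. SNHG19 had 18.2 and 22.0 TPM in input and 7.46 and 15.0 in Flag-RIP. Both Flag-RIP libraries were below both inputs, although the Flag-RIP replicates themselves lay apart. The change was -2.46 (SE 0.33, limma adjusted p = 0.0097), and 99.8% of tested genes had a higher one. As deposited the change was -0.85 (limma adjusted p = 0.011), where 0.317% of tested genes were lower.

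The other lower noncoding hosts had more TPM in both Flag-RIP libraries than in both inputs, but by less than a typical gene. SNHG8, the host of SNORA24, had 8.35 and 9.81 TPM in input against 12.2 and 14.4 in Flag-RIP, a plain ratio of 1.47. On the scaled values both Flag-RIP libraries were below both inputs, with a change of -1.10 (SE 0.19, limma adjusted p = 0.012). ZFAS1, which holds the SNORD12 snoRNAs, went from 3.76 and 4.60 to 7.85 and 7.31 TPM, a ratio of 1.81. Its change was -0.75 (SE 0.13, limma adjusted p = 0.013). SNHG6, the host of SNORD87, went from 3.51 and 4.39 to 6.10 and 7.69 TPM and changed by -0.79 (SE 0.16, limma adjusted p = 0.017).

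SNHG5, the host of the SNORD50 snoRNAs, went from 2.45 and 3.29 to 5.84 and 5 TPM and changed by -0.65 (SE 0.10, limma adjusted p = 0.011). SNHG7, which holds SNORA17A and SNORA17B, changed by -0.57 (limma adjusted p = 0.026) and SNHG11, which holds SNORA71E and SNORA60, by -0.29 (limma adjusted p = 0.043). In all of these 6 genes the scaled Flag-RIP values lay below both inputs, as they did in 39.6% of tested genes. As deposited all 6 changes were above 0, from 0.51 for SNHG8 to 1.03 for SNHG7, against 1.2 for the median gene, so the word lower holds only relative to a typical gene. Without Flag-RIP replicate 1 the calls of SNHG8 (-0.94), SNHG6 (-0.62), ZFAS1 (-0.75), SNHG5 (-0.70), SNHG7 (-0.52) and SNHG11 (-0.26) were lost, with limma adjusted p of 0.057 to 0.11. Without input replicate 1 those of SNHG5 (-0.56), SNHG6 (-0.65), SNHG7 (-0.42) and SNHG11 (-0.31) were lost, without Flag-RIP replicate 2 those of ZFAS1 (-0.75), SNHG7 (-0.61) and SNHG11 (-0.32), and without input replicate 2 that of SNHG11 (-0.27). SNHG7 was at -0.29 with log2 values shifted to a common median and at -0.34 with quantile normalization, and neither passed (limma adjusted p = 0.098 and 0.066).

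GAS5, an RNA known to accumulate in growth-arrested cells, holds 11 snoRNA genes. It had 10.5 and 13.8 TPM in input against 29.6 and 29.3 in Flag-RIP. The scaled Flag-RIP values lay below both inputs, but the change of -0.43 (SE 0.14) did not pass (limma adjusted p = 0.055). SNHG15, at -0.57 (SE 0.18, limma adjusted p = 0.054), did not pass either. SNHG25, a gene of 340 bases, was at -0.57 with an SE of 0.38, and its Flag-RIP replicates lay far apart, at 11.3 and 4.75 TPM. SNHG12 had a change of -0.11, SNHG17 of 0.25, SNHG10 of 0.30 and SNHG4 of 0.76 (SE 0.26, limma adjusted p = 0.060), and none of these passed. SNHG4 had 5.49 and 2.26 TPM in Flag-RIP against 0.30 and 0.56 in input, and it overlaps the coding gene MATR3.

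The 6 members under the filter were all noncoding. SNHG18 had 0.78 and 0.72 TPM in input and 1.00 and 1.43 in Flag-RIP, and SNHG21 0.17 and 0.48 against 0.87 and 0.99. SNHG9, at 0.73 and 0.86 against 0.69 and 0.70 TPM, was close to level as deposited where a typical gene rose. SNHG20 went from 0.05 and 0.16 to 0.75 and 1.35 TPM. SNHG22 was at 0.12 or below, and SNHG24 was listed at 0 in 3 libraries and at 0.01 in input replicate 2. Of the 30 members with a RefSeq position, 12 overlapped another protein-coding gene, and the sources do not state whether strand was used in counting. For those members, among them GAS5, SNHG12, SNHG3, SNHG4, SNHG6, SNHG7 and TAF1D, reads of the partner gene may be included.

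Most of the protein-coding hosts encode nucleolar or snoRNP proteins. TAF1D, whose gene holds 8 snoRNA genes and whose protein is a subunit of the RNA polymerase I selectivity factor, was the one that rose. It had 0.79 and 1.87 TPM in input and 7.07 and 8.79 in Flag-RIP, with a change of 0.71 (SE 0.18, limma adjusted p = 0.029). The groups did not overlap. Its call was lost without input replicate 1 (0.50, limma adjusted p = 0.11), Flag-RIP replicate 1 (0.88, 0.070) or Flag-RIP replicate 2 (0.54, 0.12), and its change was -0.04 when scaled to the spike-ins.

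NCL, which encodes nucleolin, was the most abundant member in the inputs, with 23.5 and 38.9 TPM, and had 97.1 and 115 TPM in Flag-RIP. Its ratio of 3.40 was near the median ratio of 3.32, its scaled values overlapped, and its change was 0.06 (SE 0.19). This depended on the scaling. NCL was called higher with quantile normalization (0.76, limma adjusted p = 0.047) and lower when scaled to the spike-ins (-0.92, 0.030). NOP56, a core protein of C/D snoRNPs, had 9.02 and 13.3 TPM in input against 25.6 and 28.9 in Flag-RIP. Its change of -0.42 (SE 0.14) did not pass (limma adjusted p = 0.064), although both scaled Flag-RIP values were below both inputs. The related C/D protein NOP58 had -0.26 (SE 0.12), DKC1, the pseudouridine synthase of H/ACA snoRNPs, -0.23 (SE 0.12), RCC1, the exchange factor of the GTPase Ran, -0.28 (SE 0.12) and GNL3, the nucleolar GTPase nucleostemin, -0.07 (SE 0.17). None of these 4 passed the test, which does not show that they equal a typical gene.

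The 2 classes were also compared inside each library, where the scaling of the library cancels apart from the pseudocount. The median log2 level of the tested noncoding hosts was below that of the coding hosts by 0.34 and 0.60 in the inputs (values of -0.34 and -0.60) and by 0.50 and 0.74 in Flag-RIP (-0.50 and -0.74). The groups overlapped, and the difference between them, -0.15, was smaller than the pooled SD of replicates, 0.18. With 2 libraries against 2, no exact permutation test can give a two-sided p below 0.333. Summed TPM of all 24 noncoding hosts was 1.55 and 1.25 times that of the 7 coding hosts in the inputs and 1.68 and 1.25 times in Flag-RIP. The make-up of the noncoding sum differed: DANCR took 6.74% of it in both inputs and 35.0% and 27.6% in Flag-RIP, and SNHG19 23.6% and 22.0% in the inputs and 2.39% and 5.61% in Flag-RIP.

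**Figure D3:**
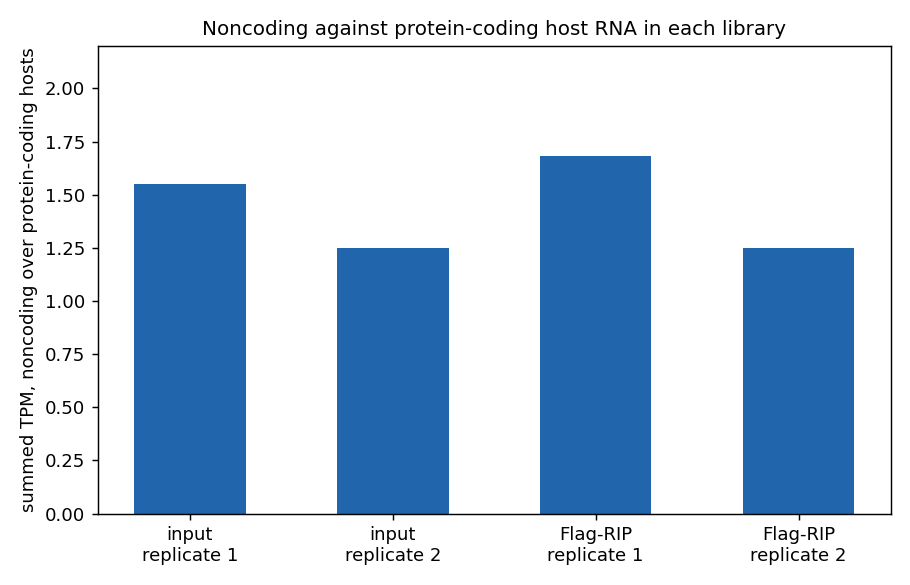
Summed TPM of the noncoding hosts divided by that of the 7 protein-coding hosts in each of the 4 libraries (bars, 1 value per library, no error bar). The ratio, over all 24 noncoding hosts, stands at 1.55 and 1.25 in the inputs and 1.68 and 1.25 in Flag-RIP, so the groups overlap.

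Other long noncoding RNAs and other coding genes give the setting for these counts. Of 262 other tested genes that RefSeq lists as lncRNA, 153 (58.4%) were higher and 15 (5.73%) lower, with a median change of 0.48. The filter takes the mean over all 4 libraries, and the median ratio of Flag-RIP to input was 3.32. A gene of low level can therefore pass through Flag-RIP alone, so these shares may in part be set by the filter. How many of the 262 passed in this way was not counted. Of 8990 other protein-coding genes 19.6% were higher and 24.5% lower, with a median of -0.01. The counts of noncoding hosts, 4 higher and 7 lower of 18, are given beside these as a description, without a test of the difference.

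The snoRNAs themselves were compared with their hosts. The reference table placed 82 snoRNA and scaRNA genes inside the spans of members, and 79 had a row in the deposited table, 22 of them listed at 0 in all 4 libraries. The table gives no strand for them, so they were placed by position alone. Of the 38 rows averaging 1 TPM or more, 3 were higher and 8 lower at the common median, 27 did not pass, and their median was -0.35. The shares, 7.89% higher and 21.1% lower, stand beside 21.5% and 23.7% of all tested genes. Of the 38, 12 passed the filter with an input mean TPM under 1, SNORA8 among them, and SNORA78 passed with a Flag-RIP mean under 1. Among 21 H/ACA RNAs 2 were higher and 7 lower, among 3 scaRNAs 1 was higher and 1 lower, and 0 of 14 C/D RNAs passed with limma, 4 of them at an unadjusted p under 0.05. Many C/D rows lay at the floor: 19 of the 46 were listed at 0 in all 4 libraries. These counts are therefore not read as a difference between the classes. These RNAs are 60 to 421 bases long, and TPM is sensitive to how effective length is set for RNAs this short. Of the 38 rows, 8 were listed at 0 in at least 1 library.

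SNORA73A lies inside the spans of both SNHG3, which rose, and RCC1, which did not pass. This RNA, an H/ACA RNA of the U17 family, had 49.7 and 77.5 TPM in input against 91.95 and 73.7 in Flag-RIP, a change of -1.32 (SE 0.17, limma adjusted p = 0.0096), against 1.45 for SNHG3 and -0.28 for RCC1. As deposited SNORA73A was at 0.40 and SNHG3 at 2.73. The TPM of SNHG3 divided by that of SNORA73A was 0.015 and 0.018 in input against 0.13 and 0.18 in Flag-RIP. These ratios do not depend on library scaling, and the groups did not overlap. SNHG3 had itself risen, so the ratios are a description and in part restate that rise. SNORA73B was at -0.51 (limma adjusted p = 0.058). Reads of SNORA73A and SNORA73B, which are related in sequence, may be divided between them.

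The ratios at DANCR and SNHG1, hosts that had themselves risen, are given as a description and restate that rise where the snoRNA row did not pass. DANCR over SNORA26 went from 1.18 and 1.65 in the inputs to 9.26 and 6.59 in Flag-RIP, while SNORA26 itself had a change of -0.28 (limma adjusted p = 0.35). SNHG1 over SNORD22, its most abundant snoRNA row, went from 0.20 and 0.34 to 1.58 and 3.73, and SNORD22 had -1.11 (SE 0.37, limma adjusted p = 0.060). The other tested SNHG1 snoRNAs were SNORD25 at -0.64, SNORD26 at 0.48, SNORD28 at 0.51 and SNORD29 at 0.84, and none passed. The values of SNORD26 and SNORD29 rest on Flag-RIP replicate 1, with 7.52 and 4.18 TPM. Both were listed at 0 in Flag-RIP replicate 2, and SNORD29 also in both inputs. Among the hosts that did not pass, SNHG4 was at 0.76 and its SNORA74A fell by 1.35 (limma adjusted p = 0.0087), and SNHG17 was at 0.25 while SNORA71A, SNORA71C and SNORA71D changed by -1.56, -2.15 and -1.38 (limma adjusted p of 0.0052 to 0.023). SNORA71B was at -0.31. The calls of SNORA71A were lost without input replicate 1 (-1.15, limma adjusted p = 0.059) and without Flag-RIP replicate 1 (-1.17, 0.11), and without the latter those of SNORA71D (-1.14, 0.060) and SNORA74A (-1.32, 0.050) as well. The SNORA71 copies are similar in sequence, and reads may have been shared out between them.

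**Figure D4:**
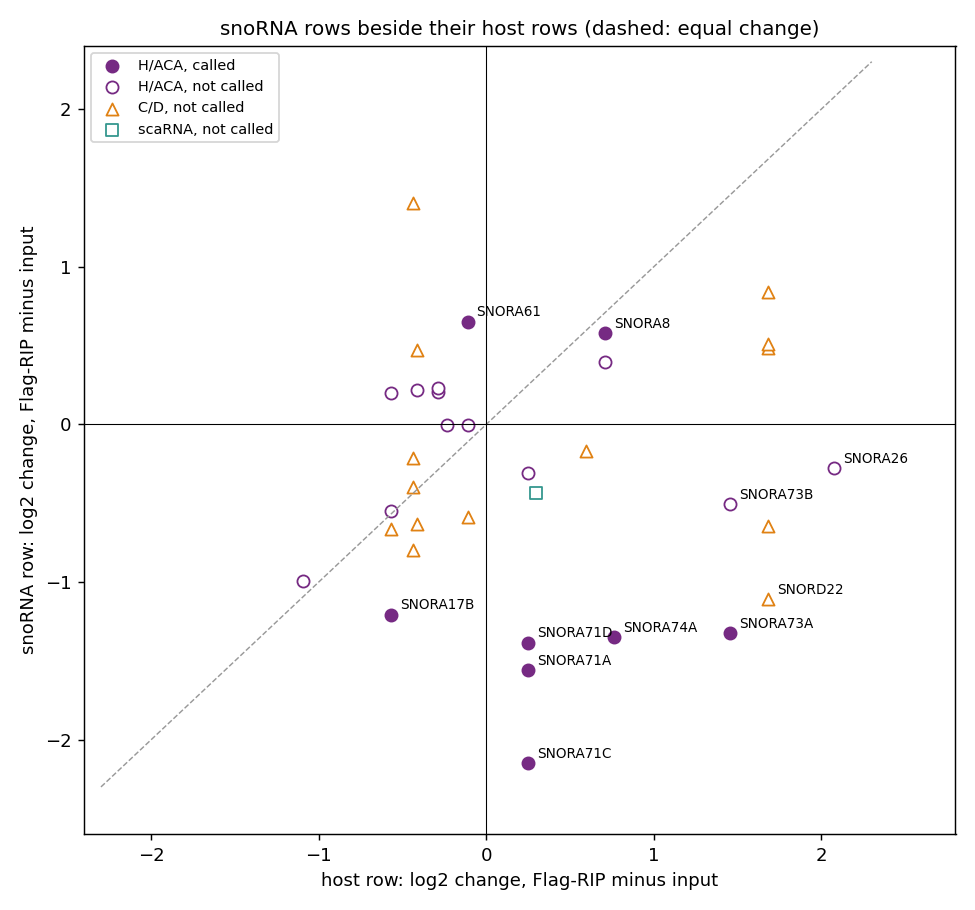
Log2 change from input to Flag-RIP of each tested snoRNA row (y axis) against that of its host row (x axis), for hosts that were tested; SNORA73A and SNORA73B are set against SNHG3. The dashed line marks equal change; SNORA73A at -1.32, SNORD22 at -1.11 and SNORA26 at -0.28 lie below it beside hosts at 1.45, 1.68 and 2.07.

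Among the remaining noncoding hosts the snoRNA rows were mixed. SNORA17B, in SNHG7, changed by -1.21 (limma adjusted p = 0.010) and SNORA17A was at 0.20; without Flag-RIP replicate 1 the call of SNORA17B was lost (-1.13, limma adjusted p = 0.063). SNORA24, in SNHG8, was at -1.0 and SNORA9, in SNHG15, at -0.55, neither past the threshold. SNORA78, in SNHG9, changed by -1.66 (limma adjusted p = 0.018), with a TPM of 0 in Flag-RIP replicate 2, and its call was lost without input replicate 1 (-1.33), Flag-RIP replicate 1 (-2.11) or Flag-RIP replicate 2 (-1.21), with limma adjusted p of 0.050 to 0.063. SNORA61, in SNHG12, rose by 0.65 (SE 0.14, limma adjusted p = 0.019), while SNORD99 and SNORA44 of the same host were at -0.59 and -0.01. The call of SNORA61 was lost without input replicate 1 or 2 (both 0.65, limma adjusted p = 0.072 and 0.051), and its change was -0.21 when scaled to the spike-ins. SNORA60 and SNORA71E, in SNHG11, were at 0.21 and 0.23, and SNORD104, in SNHG25, at -0.66. SNORD1C, in SNHG16, was at -0.17. In GAS5, SNORD47, listed at 0 in both inputs, was at 1.41, SNORD74 at -0.79, SNORD76 at -0.21 and SNORD80 at -0.40, and none passed.

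SNORA8, in TAF1D, rose by 0.58 (SE 0.11, limma adjusted p = 0.014), from 0.30 and 0.33 TPM in input to 2.47 and 2.53 in Flag-RIP, so that it passed the filter through Flag-RIP alone. Its call was lost with shifted log2 values (0.095), quantile normalization (0.33), spike-in scaling (0.12), without input replicate 2 (0.48) and without Flag-RIP replicate 1 (0.62). SNORA25, in the same gene, was at 0.39. In NOP56, SNORA51 was at 0.22, SNORD86 at 0.47 and SNORD110 at -0.63, and in DKC1 SNORA56 was at -0.01. The scaRNAs also went both ways. SCARNA17, placed inside SNHG22, rose by 1.10 (limma adjusted p = 0.0097), with 4.07 and 6.06 TPM in input against 43.9 and 32.6 in Flag-RIP. The spans of SCARNA17 and SNHG22 begin at the same base, 49814023, so this RNA was not shown to lie in an intron. Scaled to the spike-ins SCARNA17 was at 0.18 and was not called (limma adjusted p = 0.64). SCARNA16, in SNHG20, fell by 1.0 (limma adjusted p = 0.014), a call lost without Flag-RIP replicate 1 (-0.96, 0.084) or 2 (-1.05, 0.060), and SCARNA13, in SNHG10, was at -0.43. No snoRNA row of ZFAS1, SNHG5, SNHG6 or SNHG19 reached a mean TPM of 1.

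Transcripts for proteins that assemble with these RNAs were also measured. Of 22 genes for snoRNP proteins and assembly factors 17 were tested: 3 were higher, 10 lower and 4 did not pass, with a median of -0.50. The shares, 17.6% higher and 58.8% lower, stand beside 21.5% and 23.7% of all tested genes and 17.9% and 37.6% of genes averaging 5 TPM or more. The median change of the latter was -0.19. FBL, the methyltransferase of C/D snoRNPs, changed by -0.92 (limma adjusted p = 0.014), and by -0.35 with quantile normalization, where it did not pass (0.086). NHP2 and NOP10, core H/ACA proteins, changed by -1.06 and -1.09 (limma adjusted p = 0.012 and 0.017), and RUVBL2, an ATPase of snoRNP assembly, by -1.02 (limma adjusted p = 0.0098). SNU13, which binds the kink-turn of C/D RNAs, rose by 0.54, the deadenylase PARN by 0.45 and the cap hypermethylase TGS1 by 0.29 (limma adjusted p of 0.029 to 0.044). Scaled to the spike-ins SNU13 was at -0.36, PARN at -0.27 and TGS1 at -0.36. Each of the 3 lost its call when either input library or Flag-RIP replicate 1 was left out, and TGS1, with an input mean of 0.925 TPM, passed the filter through Flag-RIP alone. TGS1 was at 0.097 with shifted log2 values, 0.18 with quantile normalization and 0.12 with a pseudocount of 5, and was called in none of these. GAR1, the fourth core H/ACA protein, had 0.22 and 0.35 TPM in input against 0.67 and 0.95 in Flag-RIP, under the filter. As deposited 13 of the 17 (76.5%) were higher and 0 lower, beside 92.3% of all tested genes higher. Without Flag-RIP replicate 1 limma called 0 of the 17, with 1 higher and 10 lower at an unadjusted p under 0.05.

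A second list, fixed by name, held genes taken as protein-coding snoRNA hosts other than ribosomal protein genes and other than the members. Whether snoRNA genes lie inside the spans of these genes was not checked. Of 35 listed genes 34 were tested: 2 were higher, 14 lower and 18 did not pass, with a median of -0.17. The 5.88% higher and 41.2% lower stand beside 21.5% and 23.7% of all tested genes. Among genes averaging 5 TPM or more the shares were 17.9% higher and 37.6% lower, with a median of -0.19. The translation factor gene EEF1B2 changed by -1.49, RACK1, a ribosome-bound scaffold protein, by -1.45, and SNRPB, a core protein of spliceosomal snRNPs, by -1.38 (limma adjusted p of 0.0097 to 0.012). SNX5, a sorting nexin, rose by 0.59 and TNPO2, a nuclear import receptor, by 0.29 (limma adjusted p = 0.030 and 0.047). Scaled to the spike-ins SNX5 was at -0.26 and TNPO2 at -0.50, and both lost their calls when either input library or Flag-RIP replicate 1 was left out. With quantile normalization RACK1 was at -0.06 and was not called (limma adjusted p = 0.79). As deposited 28 of the 34 (82.4%) were higher and 0 lower, beside 92.3% of all tested genes higher and 0.317% lower. Without Flag-RIP replicate 1 limma called 0 of these 34, with 1 higher and 10 lower at an unadjusted p under 0.05.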

How the data were processed

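The authors deposited TPM values, 1 column for each library. The submitters' processing notes name STAR, RSEM 1.2.31 and GRCh38; the sources do not give the annotation or strandedness. Libraries were grouped by their titles. The 92 spike-in RNAs were not tested. On the log2 scale of the authors' TPM plus 1, each deposited TPM was first divided by each library's median ratio to the geometric mean over 10306 genes, so that the pseudocount of 1 acts alike in both groups; shifting log2(TPM + 1) afterwards understates the rise of low genes. Scale factors were 0.435 and 0.682 for the inputs and 1.90 and 1.77 for Flag-RIP. Genes with a mean deposited TPM of at least 1 were tested with limma 3.58.1 in R 4.3.3 (trend, two-sided, Benjamini-Hochberg). Replicate deviations had an SD of 0.16 in input and 0.21 in Flag-RIP. The fit was tested on simulated data. The members, lists and tests were chosen with earlier results of these data known. The text names every member, the snoRNA rows inside members above the filter, and the 3 largest called changes in each direction of both lists with FBL, SNU13, NHP2, NOP10 and GAR1. The design asked for snoRNAs on the host's strand, but the reference table holds no strand, so position alone was used. The titles number replicates 1 and 2 in both groups but do not say whether same-numbered libraries pair. Deviations of same-numbered replicates had a correlation of -0.098, which with 2 libraries per group cannot decide this. The main fit held no pairing. snoRNA genes, positions and start windows are from RefSeq, GRCh38.p14. Alternatives were pseudocounts of 0.1 and 5, other filters and scalings, no variance trend, a replicate block and each library left out.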

Additional observations from a re-analysis of the deposited data

How the results depend on the processing

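At the common median 4 noncoding hosts were higher and 7 lower, 1 coding host higher and 0 lower, 3 snoRNA rows higher and 8 lower, 3 snoRNP genes higher and 10 lower, and 2 other coding hosts higher and 14 lower. Pseudocounts of 0.1 and 5 moved none of these counts by over 1.5 times. Without a filter limma called 0 genes in each group and direction (5008 higher and 3063 lower at an unadjusted p under 0.05 over all genes), and the log2 value of noncoding minus protein-coding hosts, Flag-RIP minus input, was 0.046 in place of -0.15. With a mean TPM of at least 5 there were 0 coding hosts higher, 5 snoRNA rows lower, 1 snoRNP gene higher and 1 other coding host higher. As deposited there were 16 noncoding hosts higher and 1 lower, 7 coding hosts higher, 25 snoRNA rows higher and 2 lower, 13 snoRNP genes higher and 0 lower, and 28 other coding hosts higher and 0 lower. Shifted log2 values gave 6 other coding hosts higher. Quantile normalization gave 2 coding hosts higher, 1 snoRNP gene higher, and 5 other coding hosts higher and 8 lower. Spike-in scaling gave 11 noncoding hosts lower, 0 coding hosts higher and 6 lower, 25 snoRNA rows lower, 0 snoRNP genes higher, and 0 other coding hosts higher and 29 lower. Without the variance trend 1 coding host was lower. With the replicate number as a block there were 3 noncoding hosts higher and 6 lower, 5 snoRNA rows higher, 1 snoRNP gene higher, 1 other coding host higher and 8 lower, and 1833 higher and 1769 lower over all genes in place of 2240 and 2472; the numbers are not known to pair libraries. Leaving out each library in turn, where a lone library is assumed to vary like the other group, gave 3 to 5 noncoding hosts higher and 1 to 6 lower, 0 to 1 coding hosts higher and 0 lower, 2 to 8 snoRNA rows higher and 5 to 11 lower, 0 to 2 snoRNP genes higher and 0 to 8 lower, 0 to 1 other coding hosts higher and 0 to 10 lower, and -0.28 to -0.015 for noncoding minus protein-coding hosts. The cause of these moves was not tested, except that as deposited and spike-in scaling move the median of all genes by 1.2 and -0.68. Under those scalings signs turned; the values given here are those called in at least 1 of the fits compared, and a further 4 named genes as deposited and 9 with spike-in scaling turned sign without being called in either. As deposited DKC1 was at 1.31, GAS5 1.22, GNL3 1.41, NOP56 1.23, NOP58 1.16, RCC1 1.36, SNHG11 0.67, SNHG12 1.31, SNHG15 0.71, SNHG25 0.90, SNHG5 0.74, SNHG6 0.67, SNHG7 1.03, SNHG8 0.51 and ZFAS1 0.73. Among snoRNA rows SCARNA13 was at 1.27, SCARNA16 0.31, SNORA17B 0.48, SNORA26 1.25, SNORA44 1.2, SNORA56 0.75, SNORA71A 0.064, SNORA71B 0.91, SNORA71D 0.048, SNORA73A 0.40, SNORA73B 1.21, SNORA74A 0.33, SNORA9 0.60, SNORD104 0.96, SNORD1C 0.60, SNORD25 0.61, SNORD76 0.80 and SNORD99 0.53, and in the lists NOP10 was at 0.39, NHP2 0.60, RUVBL2 0.61, FBL 0.78, EEF1B2 0.24, RACK1 0.29 and SNRPB 0.28. With spike-in scaling NCL was at -0.92, SNHG16 -0.33, TAF1D -0.043, SNORA61 -0.21, SNU13 -0.36, PARN -0.27, TGS1 -0.36, SNX5 -0.26 and TNPO2 -0.50. Without Flag-RIP replicate 1 SNORA56 was at 0.67 and SNORD26 at -0.67, and without Flag-RIP replicate 2 SNORD80 was at 0.48; SNORD26 was at 1.64 without replicate 2 and SNORD80 at -1.27 without replicate 1. TPM carries no read depth, so the precision of low members is known only from the replicates.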

Other observations

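Further host genes are listed in the table under older symbols that the rule for members does not reach. LRRC75A-AS1, now SNHG29, had 5.76 and 6.68 TPM in the inputs and 20.7 and 18.8 in Flag-RIP. C6orf48, now SNHG32, had 3.37 and 4.46 TPM in the inputs and 12.0 and 12.6 in Flag-RIP. Their ratios of 3.18 and 3.14 lay just under the median ratio of 3.32, and their changes at the common median, -0.08 for both, did not pass (limma adjusted p = 0.72 and 0.63). LINC00888, now SNHG33, had 0.27 and 0.43 TPM against 0.92 and 1.16 and was under the filter. Scaled values of input and Flag-RIP overlapped in each of these genes.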
